A study of Mus musculus with 48 samples.

Results

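The 10 genes described here are those of MHC class I antigen processing together with Ubd and H2-M2, followed in liver RNA from mice with altered LXRα. B2m, H2-K1, H2-D1, Psmb8, Psmb9, Tap1, Tap2 and Nlrc5, 8 genes in all, were taken for their function, and Ubd and H2-M2 for their high levels in homozygous livers of these same data. They are 10 of 55416 genes counted, all were found by symbol in the annotation, and all 10 passed the filter on low counts. Because H2-M2 and Ubd were chosen on their levels, their values are given as a description with no test.

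RNA-seq was performed on liver from 48 mice fed a western diet for 8 weeks, in a knock-in series (DN) and a knockout series (KO) of 24 each. DN mice carried 0, 1 or 2 copies of the W441R allele of Nr1h3, the gene of LXRα, which encodes a dominant negative receptor, and KO mice 0, 1 or 2 copies of a null allele. The labels give the strain of all as C57Bl/6J; the knockout line was backcrossed from a mixed Sv129 background and kept at another site. Each genotype, wild-type (WT), heterozygous (HET) and homozygous (HOM), had 8 livers. Mice of all groups came from crosses of heterozygous parents, and all received the same diet from 8 weeks of age, with livers taken at 16 weeks. DN mice were male, and the labels give no sex for the KO mice. Both alleles are carried by every cell of the body, so the cell type behind a change cannot be read from the design.

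MHC class I molecules show peptides from inside the cell to CD8 T cells. Each consists of a heavy chain, such as H2-K1 or H2-D1 in mice, bound to the light chain B2m. Peptides are cut by the proteasome, carried into the endoplasmic reticulum by the transporter of Tap1 and Tap2, and loaded there. Under interferon-γ, Psmb8 and Psmb9 replace catalytic subunits of the constitutive proteasome, and Nlrc5 activates transcription of the class I genes. Ubd (FAT10) is a ubiquitin-like protein, induced by interferon-γ and tumour necrosis factor, that directs its partners to the proteasome. H2-M2 is a nonclassical class I heavy chain of the H2-M region. Hepatocytes carry low levels of class I on their surface at rest, and raise them in inflamed liver.

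Levels are given as CPM, read counts relative to library sizes scaled by TMM, not to library size alone. TMM factors were 1.21 to 1.34 in the DN:HOM livers used and 0.92 to 0.97 in the DN:WT livers used. CPM in DN:HOM are therefore lower than library size alone would give. Nr1h3 was at 93.5 ± 8.82 CPM (SD, n = 8) in KO:WT and 27 ± 1.99 (SD, n = 8) in KO:HOM livers. It was at 91.7 ± 5.04 (SD, n = 7) in DN:WT and 72.7 ± 3.56 (SD, n = 7) in DN:HOM livers. Reads on genes ranged from 5332897 to 16961379 per liver, and 2 livers (KO:HET animal 3 and KO:HOM animal 17) had fewer than 10000000. Hepatocyte markers such as Alb and Apoa1 summed to 62424 to 79593 CPM in DN:WT, 29881 to 40668 in DN:HOM, 75361 to 97494 in KO:WT and 54818 to 77479 in KO:HOM livers. DN:WT animal 10 and DN:HOM animal 12 went against their labels for H2-M2 and Ubd. H2-M2 was at 21.5 CPM and Ubd at 145 CPM in DN:WT animal 10, above the highest of the other DN:WT livers (0.848 and 4.4 CPM), while DN:HOM animal 12 was at 0.140 and 3.63 CPM, below the lowest of the other DN:HOM livers (10.8 and 80.6 CPM). The mismatch was not limited to these genes. Kupffer cell markers summed to 3.03 CPM in animal 10 (other DN:WT livers 129 to 251, other DN:HOM livers 1.29 to 3.40) and to 149 CPM in animal 12, and macrophage markers to 1251 and 87.3 CPM. For these measures each resembled the genotype on the label of the other; whether the labels were exchanged was not tested, and values with all 48 livers hold both as labelled. Neither matched any liver in the published source values of the DN series, which fit the other 22 DN livers. Such values were not at hand for KO livers, and all 24 were kept. Results therefore rest on 46 livers, and several are also given with all 48.

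H2-M2 and Ubd lie in the same part of chromosome 17 as most of the other genes. In GRCm39, H2-M2 is at chr17:37791742-37794472 on the minus strand and Ubd at chr17:37504783-37506987 on the plus strand, with 284755 bases between them. Psmb9, Tap1, Psmb8 and Tap2 lie side by side within 34870 bases from chr17:34400960 on. H2-K1 is at chr17:34214987-34219321 and H2-D1 at chr17:35481691-35486475. Only B2m (chromosome 2) and Nlrc5 (chromosome 8) lie elsewhere. The 250 bases before the annotated start are shown for Ubd and H2-M2, the genes with the largest differences, and for H2-K1, a classical heavy chain that did not pass the test in DN:HOM. They are read on the strand of each gene from the GRCm39 genome with GENCODE starts.
Ubd (chr17:37504533-37504782): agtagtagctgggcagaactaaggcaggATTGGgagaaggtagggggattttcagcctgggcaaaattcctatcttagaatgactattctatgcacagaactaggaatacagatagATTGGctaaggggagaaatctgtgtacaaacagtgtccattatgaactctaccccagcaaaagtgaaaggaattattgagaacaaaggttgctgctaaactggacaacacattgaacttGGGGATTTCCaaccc
H2-M2 (chr17:37794473-37794722): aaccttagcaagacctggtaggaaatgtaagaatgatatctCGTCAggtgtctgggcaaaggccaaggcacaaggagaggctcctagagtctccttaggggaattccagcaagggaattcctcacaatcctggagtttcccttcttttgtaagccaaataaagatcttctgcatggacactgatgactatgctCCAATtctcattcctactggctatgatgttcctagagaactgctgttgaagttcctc
H2-K1 (chr17:34219322-34219571): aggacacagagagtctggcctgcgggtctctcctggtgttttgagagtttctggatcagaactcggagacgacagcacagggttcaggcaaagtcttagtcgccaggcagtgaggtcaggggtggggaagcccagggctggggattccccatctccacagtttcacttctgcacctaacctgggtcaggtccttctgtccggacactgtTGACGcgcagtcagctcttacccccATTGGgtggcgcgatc
Capitals mark matches, on either strand, to any of 5 motifs that were searched in all 10 genes. An NF-kB-type motif, searched only in the spelling GGG, any 2 bases, TTTCC, was found in Ubd, beginning 15 bases before its start. None of the other members held this spelling, which is present in 1.47% of 21770 promoter windows of the same length. Near spellings were not searched, such as ggggaattcc in the H2-M2 stretch and ggggattcccc in the H2-K1 stretch, so Ubd is not shown to be alone in holding such a site. CCAAT was found in 4 of 10 members (36.5% of windows) and TGACG, the core of the cyclic AMP response element, in 3 of 10 (18% of windows). TTCNNNGAA, the gamma-activated site, was found in H2-D1 alone (7.7% of windows), and the interferon-stimulated response element, as GAAA, any 2 bases, GAAA, in none (3.32% of windows). Absence of these letters says nothing about elements spelled differently or placed elsewhere.

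H2-M2 was close to absent from WT liver and detected in every homozygous liver of the 46. The 7 DN:WT livers ranged from 0 to 0.848 CPM (median 0.148) and the 8 KO:WT livers from 0 to 0.521 CPM (median 0.102), with 26 reads in all in the former and 22 in the latter. DN:HOM livers ranged from 10.8 to 29.3 CPM (median 26.8), and KO:HOM livers from 11.2 to 30.9 CPM (median 12.5). The homozygous and WT ranges lay far apart in both studies, and the homozygous groups overlapped, although 6 of 7 DN:HOM livers were at 21.2 CPM or more and 6 of 8 KO:HOM livers at 13.3 CPM or less. DN:HET livers spread from 0.901 to 22.8 CPM (median 2.99), each above every DN:WT liver. KO:HET livers ranged from 0.0696 to 4.18 CPM (median 0.419), and 4 of 8 exceeded every KO:WT liver. The fitted log2 fold changes against WT were 6.51 (SE 0.74) in DN:HOM, 6.36 (SE 0.72) in KO:HOM, 4.83 (SE 0.74) in DN:HET and 2.79 (SE 0.86) in KO:HET, and their errors reflect the few reads in WT livers. With all 48 livers, which add DN:WT animal 10 and DN:HOM animal 12 at once, the DN values dropped to 2.77 and 1.3. DN:WT animal 10 alone held more H2-M2 reads than the other DN:WT livers together. Of the 100-base windows of the H2-M2 transcript, 0% occurred in another gene, and the same held for Ubd.

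Ubd was likewise lowest in WT, intermediate in HET and highest in HOM livers of both series, at a higher level. It ranged from 1.26 to 4.4 CPM (median 1.60) in DN:WT and from 0.687 to 6.57 CPM (median 2.14) in KO:WT livers. DN:HOM livers ranged from 80.6 to 247 CPM (median 192), and KO:HOM livers from 17.8 to 150 CPM (median 93.8). DN:HOM was thus mostly above KO:HOM with overlapping ranges, and neither homozygous range touched that of WT. DN:HET livers fell into a lower set of 4 between 7.87 and 8.37 CPM, a pair at 25.7 and 29.5 CPM (animals 16 and 29), and a pair at 128 and 134 CPM (animals 4 and 22). In KO:HET, animals 4 and 6 stood highest at 31.4 and 18.6 CPM, and the lowest liver was at 2.10 CPM. Fitted log2 fold changes were 6.43 (SE 0.73) in DN:HOM, 4.86 (SE 0.64) in KO:HOM, 4.39 (SE 0.69) in DN:HET and 1.73 (SE 0.64) in KO:HET. With all 48 livers those of DN:HOM and DN:HET were 2.95 and 1.1. In DN:HET, 8 of 8 livers lay above every DN:WT liver for both H2-M2 and Ubd. This held for 0.134% of all genes tested, and nothing is read from that share, since both genes were chosen on their levels in these data.

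**Figure D1:**
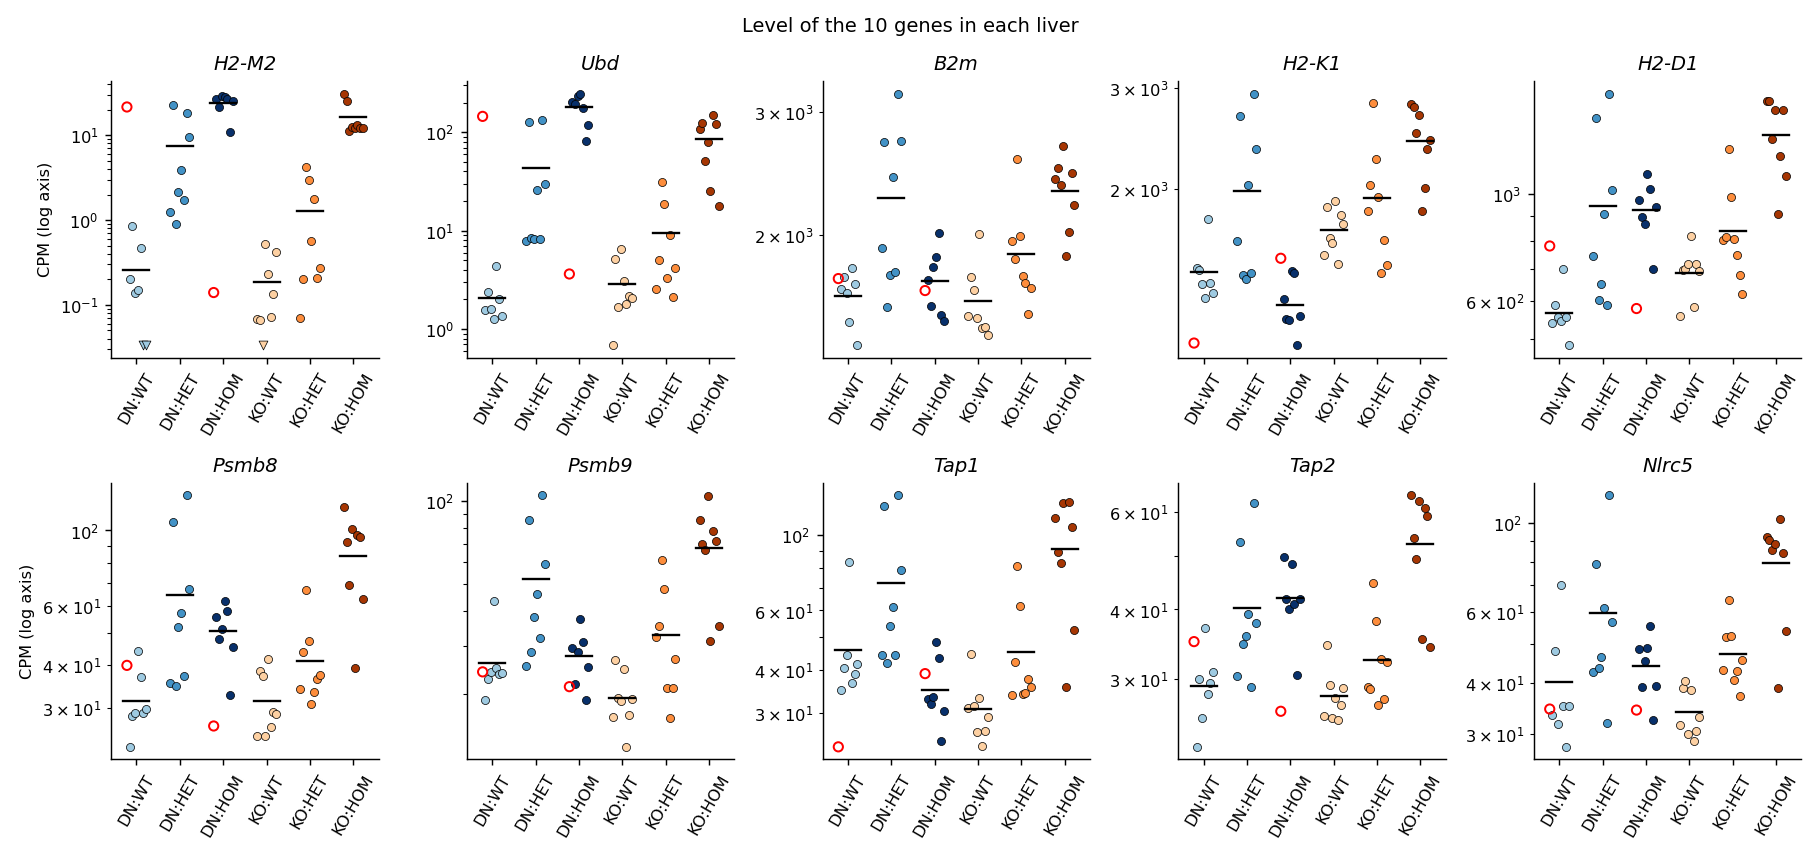
CPM (log axis) of the 10 genes in each of 48 livers by genotype group, with bars at the mean of the livers used. Open red circles are DN:WT animal 10 and DN:HOM animal 12, and triangles for H2-M2 are livers with no read, drawn at the foot of the axis. H2-M2 and Ubd are high in DN:HOM and KO:HOM, while for Psmb9, Tap1 and Nlrc5, high in KO:HOM, no DN:HOM liver lies above the highest DN:WT liver, which is animal 13 in each case (5, 1 and 3 of 7 lie above the others).

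The 8 genes taken for function had higher mean levels per kilobase in WT liver than Ubd and H2-M2, by a wide margin for the heavy and light chains and a narrow one for Nlrc5. Per kilobase of exon, mean levels in DN:WT were 775 CPM for B2m, 451 for H2-K1, 189 for H2-D1, 9.21 for Psmb8, 7.63 for Tap1, 6.83 for Psmb9, 6.11 for Tap2 and 4.73 for Nlrc5, against 2.23 for Ubd and 0.163 for H2-M2. In KO:WT Nlrc5 (3.99 CPM per kilobase) and Psmb9 (5.10) stood nearest to Ubd (3.11). In DN:HOM, Ubd reached 192 CPM per kilobase, below H2-D1 (311) but above all proteasome and transporter genes, and H2-M2 reached 15.2, close to Psmb8 (14.8). Between KO:WT and DN:WT livers 0 of the 8 genes passed in edgeR, where 12% of all genes did, and 1 had an unadjusted p below 0.05. The count was also 0 with all 48 livers (all genes 12.7%). Tap1 was the gene with the low unadjusted p, at 45.8 ± 16.9 CPM (SD, n = 7) in DN:WT and 30.8 ± 6.42 CPM (SD, n = 8) in KO:WT livers, a log2 difference of -0.56 (SE 0.25, edgeR adjusted p = 0.14).

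The homozygous knockout comparison asks what loss of LXRα does to these genes. All 8 rose in KO:HOM against KO:WT (edgeR quasi-likelihood test, Benjamini-Hochberg adjusted p below 0.05), where 11.5% of 15711 genes tested were called higher and 19.4% called in all. Their log2 fold changes ran from 0.51 to 1.80 (median 1.09, all genes -0.02). Psmb9, the interferon-inducible β1i subunit, ranged from 12.9 to 26.5 CPM (median 19.1) in KO:WT and was at 67.7 ± 24.2 CPM (SD, n = 8; lowest 31.3, median 70.8) in KO:HOM, without overlap, a log2 change of 1.80 (SE 0.27, adjusted p = 6.7e-06). Tap1 ranged from 24 to 44.8 CPM (median 30.1) in KO:WT and from 35.7 to 125 CPM (median 97.8) in KO:HOM. KO:HOM animal 22 alone lay inside the WT range, and the log2 change was 1.56 (SE 0.24, adjusted p = 1.5e-05). Psmb8, the β5i subunit, was at 31.4 ± 6.76 CPM (SD, n = 8) and 84.3 ± 25.2 CPM (SD, n = 8), a log2 change of 1.42 (SE 0.22, adjusted p = 1.3e-05). Nlrc5, the transactivator, was at 33.9 ± 4.62 and 79.6 ± 21.6 CPM (SD, n = 8 each), a log2 change of 1.23 (SE 0.20, adjusted p = 1.8e-05).

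The heavy and light chains rose less, from a high base. H2-D1 ranged from 560 to 819 CPM (median 698) in KO:WT and from 912 to 1563 CPM (median 1399) in KO:HOM, again without overlap, with a log2 change of 0.95 (SE 0.16, adjusted p = 3.0e-05). H2-K1 was at 1699 ± 153 and 2426 ± 355 CPM (SD, n = 8 each), a log2 change of 0.51 (SE 0.13, adjusted p = 0.0042). B2m was at 1606 ± 192 and 2307 ± 265 CPM (SD, n = 8 each), a log2 change of 0.52 (SE 0.11, adjusted p = 6.0e-04). Tap2, the partner of Tap1, changed by 0.90 (SE 0.14, adjusted p = 1.0e-05) from 28 ± 3.04 to 52.5 ± 11.9 CPM (SD, n = 8 each). For each of the 8 genes at least 7 of 8 KO:HOM livers stood above every KO:WT liver, and for H2-D1 and Psmb9 all 8 did, as for 2.18% of all genes. KO:HOM animal 22 was among the lowest pair of livers for all 10 members and animal 30 for 7 of them.

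The homozygous knock-in comparison asks the same of the dominant negative receptor. H2-D1, Psmb8 and Tap2 rose against DN:WT, 3 of the 8, a share near that of all genes, of which 29.1% were called higher and 59.1% called in all. The median log2 change of the 8 was 0.12 (all genes -0.01). H2-D1 ranged from 486 to 698 CPM (median 555) in DN:WT and from 699 to 1103 CPM (median 943) in DN:HOM, which met but did not overlap (as for 17.7% of genes), a log2 change of 0.73 (SE 0.17, adjusted p = 2.5e-04). Psmb8 was at 31.4 ± 6.94 and 50.4 ± 9.71 CPM (SD, n = 7 each), with 6 of 7 DN:HOM livers above every DN:WT liver and a log2 change of 0.69 (SE 0.23, adjusted p = 0.0094). Tap2 was at 29.1 ± 4.56 and 41.9 ± 6.30 CPM (SD, n = 7 each), with a log2 change of 0.54 (SE 0.15, adjusted p = 0.0015).

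The other 5 genes did not pass in DN:HOM. Psmb9 ranged from 19.1 to 43.5 CPM (median 23.8) in DN:WT and from 19 to 37.3 CPM (median 28.5) in DN:HOM, a log2 difference of 0.09 (SE 0.28, adjusted p = 0.79). Tap1 ranged from 35.1 to 83.5 CPM (median 40.5) in DN:WT and from 24.7 to 48.5 CPM (median 33) in DN:HOM, a log2 difference of -0.37 (SE 0.26, adjusted p = 0.21). Nlrc5 was at 40.2 ± 14.5 and 44.2 ± 7.73 CPM (SD, n = 7 each), H2-K1 at 1437 ± 162 and 1261 ± 137 CPM, and B2m at 1633 ± 142 and 1715 ± 186 CPM, with adjusted p of 0.55, 0.29 and 0.55. A single WT liver, DN:WT animal 13, was high for Tap1 (83.5 CPM, the others at most 44.5), for Psmb9 (43.5 CPM, the others at most 24.9) and for Nlrc5 (69.9 CPM, the others at most 48.1). No DN:HOM liver lay above it for these genes, but 1, 5 and 3 of 7 lay above the other DN:WT livers. Without it the log2 differences of Tap1, Psmb9 and Nlrc5 were -0.18, 0.25 and 0.32, and the number of genes called stayed at 3. Scaling matters for these: with library size alone the median gene of DN:HOM moved to 0.42, and B2m and Nlrc5 then also passed, with log2 values of 0.52 and 0.58.

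**Figure D2:**
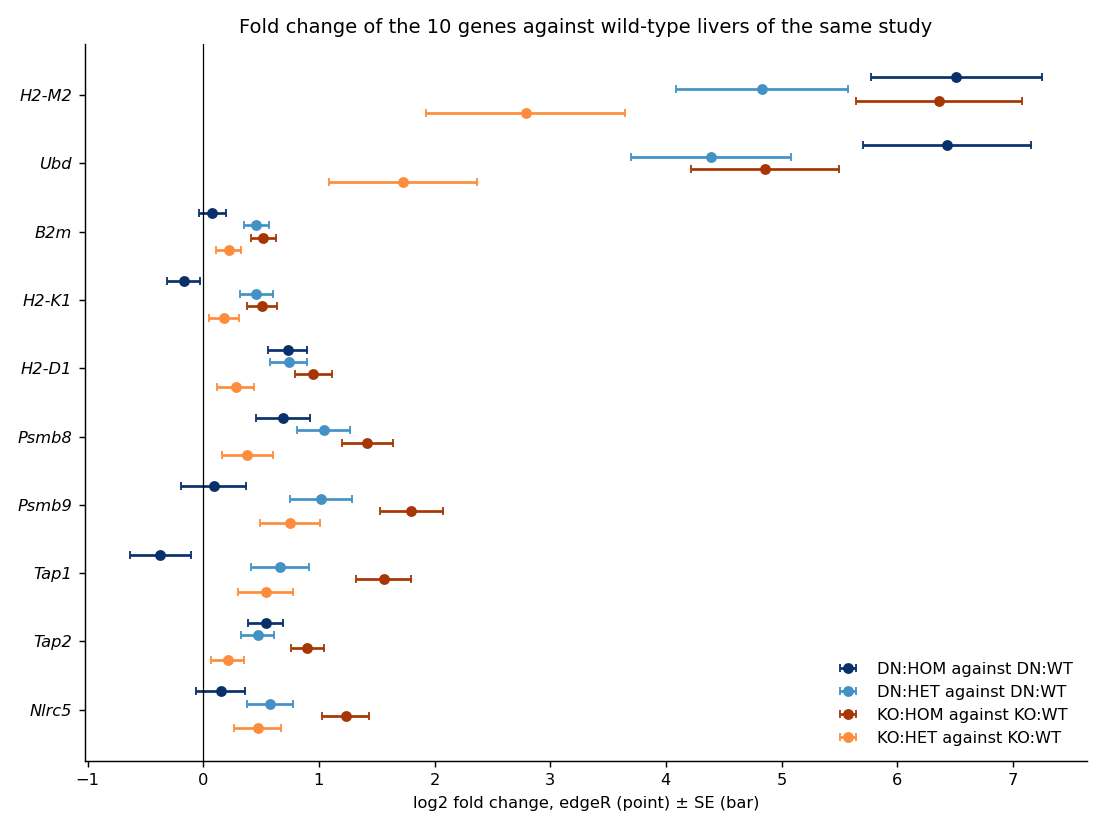
Log2 fold changes of the 10 genes (points, edgeR, with bars of ± 1 SE) in heterozygous and homozygous livers against WT livers of the same study. H2-M2 and Ubd reach 6.51 and 6.43 in DN:HOM, while Tap1 lies at -0.37 in DN:HOM and at 1.56 in KO:HOM.

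The homozygous effects were set against each other by the difference of differences. For 5 of the 8 genes the DN effect was smaller than the KO effect, where 18.3% of genes were called lower in this contrast and 34.7% in all. The difference (DN minus KO, log2) was -1.93 for Tap1 (SE 0.35, adjusted p = 3.1e-05), -1.71 for Psmb9 (SE 0.38, adjusted p = 4.7e-04) and -1.07 for Nlrc5 (SE 0.28, adjusted p = 0.0025). It was -0.68 for H2-K1 (SE 0.19, adjusted p = 0.0045) and -0.43 for B2m (SE 0.16, adjusted p = 0.033). H2-D1 (-0.22, SE 0.23, adjusted p = 0.48), Tap2 (-0.36, SE 0.20, adjusted p = 0.16) and Psmb8 (-0.73, SE 0.32, adjusted p = 0.07) did not pass, although Psmb8 did without DN:WT animal 2 (adjusted p = 0.048) or KO:HOM animal 22 (adjusted p = 0.027). All 48 livers also gave 5 (all genes 6.42% lower). With library size alone it was 3, because H2-K1 (-0.37, adjusted p = 0.15) and B2m (-0.12, adjusted p = 0.63) no longer passed. B2m also missed with upper-quartile scaling (-0.38, adjusted p = 0.074) and without the low-count filter (-0.43, adjusted p = 0.065). For Ubd and H2-M2 the differences were 1.57 (SE 0.92) and 0.15 (SE 1.45), given without a test, and with all 48 livers they were -1.91 and -3.59. The series differ in line and site as well as in allele, and these cannot be told apart.

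Plotting one gene against another by liver shows the same separation. KO:HOM livers with 78.9 to 150 CPM of Ubd had Psmb9 of 69.9 CPM or more. The 7 DN:HOM livers had 80.6 to 247 CPM of Ubd and at most 37.3 CPM of Psmb9. DN:HET animals 22 and 4, at 134 and 128 CPM of Ubd, had 105 and 85.3 CPM of Psmb9 and so resembled KO:HOM rather than DN:HOM livers. The left-out DN:WT animal 10 lay with the DN:HOM livers, at 145 CPM of Ubd and 24.1 CPM of Psmb9.

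**Figure D3:**
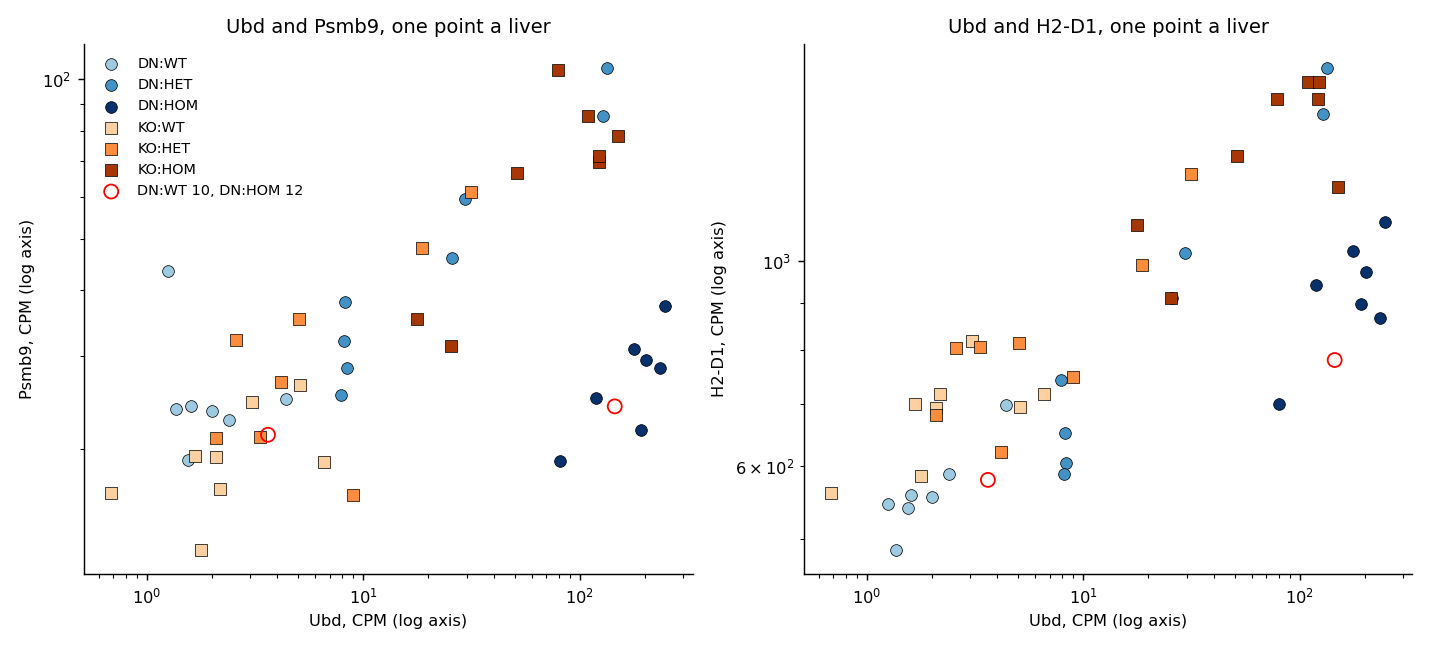
Ubd against Psmb9 (left) and against H2-D1 (right) in each liver, in CPM on log axes, with DN groups as circles and KO groups as squares. The DN:HOM livers lie to the right with Psmb9 of 19 to 37.3 CPM, apart from KO:HOM livers of like Ubd level, and the gap is narrower for H2-D1.

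Levels in heterozygous knock-in livers were uneven, and the calls rested on 2 livers, animals 22 and 4, which also had the highest macrophage and T cell marker sums and the lowest hepatocyte sums of their group. With the 46 livers, in DN:HET against DN:WT 4 of the 8 genes (B2m, H2-D1, Psmb8 and Psmb9) passed, where 2.23% of genes were called higher and 2.30% called in all, and the median log2 change of the 8 was 0.62. Psmb8 ranged from 34.8 to 127 CPM (median 54.5) in DN:HET against 23 to 44.2 CPM (median 29) in DN:WT, a log2 change of 1.04 (SE 0.23, adjusted p = 0.013). Psmb9 changed by 1.02 (SE 0.27, adjusted p = 0.033) to 52.5 ± 29.1 CPM (SD, n = 8), H2-D1 by 0.74 (SE 0.16, adjusted p = 0.014) and B2m by 0.46 (SE 0.11, adjusted p = 0.021). H2-K1, Tap1, Tap2 and Nlrc5 had values of 0.46, 0.66, 0.47 and 0.58, with adjusted p of 0.056, 0.17, 0.067 and 0.13. Animal 22 was among the highest pair of DN:HET livers for all 10 members and animal 4 for 9. Without animal 22, and likewise without animal 4, 0 of the 8 passed in edgeR, 2 passed without DN:WT animal 28 and 7 without DN:HET animal 20. Over all genes these fits called 21, 29, 103 and 601 genes, in the same order. The log2 changes of Psmb8, Psmb9, H2-D1 and B2m were 0.82, 0.79, 0.59 and 0.38 without animal 22. Without animal 4 they were 0.90, 0.88, 0.63 and 0.42, so they were smaller but stayed above 0. With all 48 livers Psmb8 alone passed (adjusted p = 0.031; all genes 0.250% higher), with an unadjusted p below 0.05 for all 8, and DESeq2 on the 46 livers called 6.

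The homozygous knock-in livers were then compared directly with the heterozygous ones, a contrast chosen after the values were seen. Tap1 fell by 1.03 (SE 0.25, adjusted p = 5.5e-04), Psmb9 by 0.92 (SE 0.27, adjusted p = 0.0035), H2-K1 by 0.64 (SE 0.14, adjusted p = 1.2e-04) and B2m by 0.38 (SE 0.11, adjusted p = 0.0048) from DN:HET to DN:HOM on the log2 scale, 4 of the 8 genes where 27.8% were called lower and 53.9% in all. H2-D1 (-0.01), Psmb8 (-0.34), Tap2 (0.07) and Nlrc5 (-0.42) did not pass. DN:HET animals 22 and 4 stood apart here: Psmb9 was at 105 and 85.3 CPM in them and 25.3 to 59.4 CPM in the other DN:HET livers, and Tap1 at 131 and 122 CPM against 41.9 to 78.8. Without both, Tap1 (-0.63, adjusted p = 0.019) and H2-K1 (-0.44, adjusted p = 0.0028) still fell, while Psmb9 (-0.48, adjusted p = 0.099) and B2m (-0.24, adjusted p = 0.059) did not pass, which left 2 of the 8 (all genes 29.2% lower). Leaving out any 1 liver of the 2 groups left 4 or 5. Nlrc5 also fell with all 48 livers (-0.48, adjusted p = 0.036), which made 5 of the 8 (all genes 24.9% lower). Over the same groups Ubd and H2-M2 were higher in DN:HOM, by 2.04 (SE 0.54) and 1.67 (SE 0.48). In the knockout series KO:HOM livers exceeded KO:HET in 6 of the 8 genes, where 7.24% were called higher, with log2 changes from 0.67 for H2-D1 to 1.05 for Psmb9, and B2m (0.30, adjusted p = 0.074) and H2-K1 (0.33, adjusted p = 0.098) did not pass. In KO:HET against KO:WT 0 of the 8 passed in edgeR and 0 in DESeq2 (0.0127% of genes called higher, 0.0191% in all), and 3 of them (Psmb9, Nlrc5 and Tap1) had an unadjusted p below 0.05. KO:HET animals 4 and 6 were the highest pair for all 10 members.

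The exchange of proteasome subunits was followed as a ratio of CPM within each liver, which does not depend on scaling. Psmb8 to Psmb5 averaged 0.616 ± 0.156 (SD, n = 7) in DN:WT, 1.41 ± 0.799 (SD, n = 8) in DN:HET and 1.11 ± 0.228 (SD, n = 7) in DN:HOM livers, and 0.745 ± 0.206, 1.06 ± 0.356 and 2.17 ± 0.648 (SD, n = 8 each) in KO:WT, KO:HET and KO:HOM. Psmb9 to Psmb6 averaged 0.233 ± 0.0790 in DN:WT and 0.301 ± 0.0718 in DN:HOM (SD, n = 7 each), with overlapping ranges, but 0.190 ± 0.0426 in KO:WT and 0.733 ± 0.250 in KO:HOM (SD, n = 8 each), without overlap. Psmb10 to Psmb7, for the remaining inducible subunit, averaged 0.149 ± 0.0429 in DN:WT and 0.453 ± 0.0895 in DN:HOM (SD, n = 7 each), and 0.204 ± 0.0443 and 0.464 ± 0.157 in KO:WT and KO:HOM (SD, n = 8 each). The 3 ratios thus stood in a different relation in the homozygous groups: DN:HOM and KO:HOM were close for Psmb10 and far apart for Psmb9. Psmb10 itself rose by 0.94 in DN:HOM (SE 0.22, adjusted p = 2.8e-04) and by 1.01 in KO:HOM (SE 0.20, adjusted p = 3.4e-04). The constitutive core moved the other way in DN:HOM, where 13 of its 14 genes fell, by as much as 0.67 for Psmb7 (SE 0.07, adjusted p = 6.2e-11), where 30% of all genes fell, against 2 of 14 in KO:HOM, where 7.87% did. These counts were 13 and 0 with all 48 livers. Unlike the ratios, the size and direction of such changes depend on scaling. The median log2 change of the core in DN:HOM was -0.31. With library size alone the median of all genes in DN:HOM moved from -0.01 to 0.42.

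**Figure D4:**
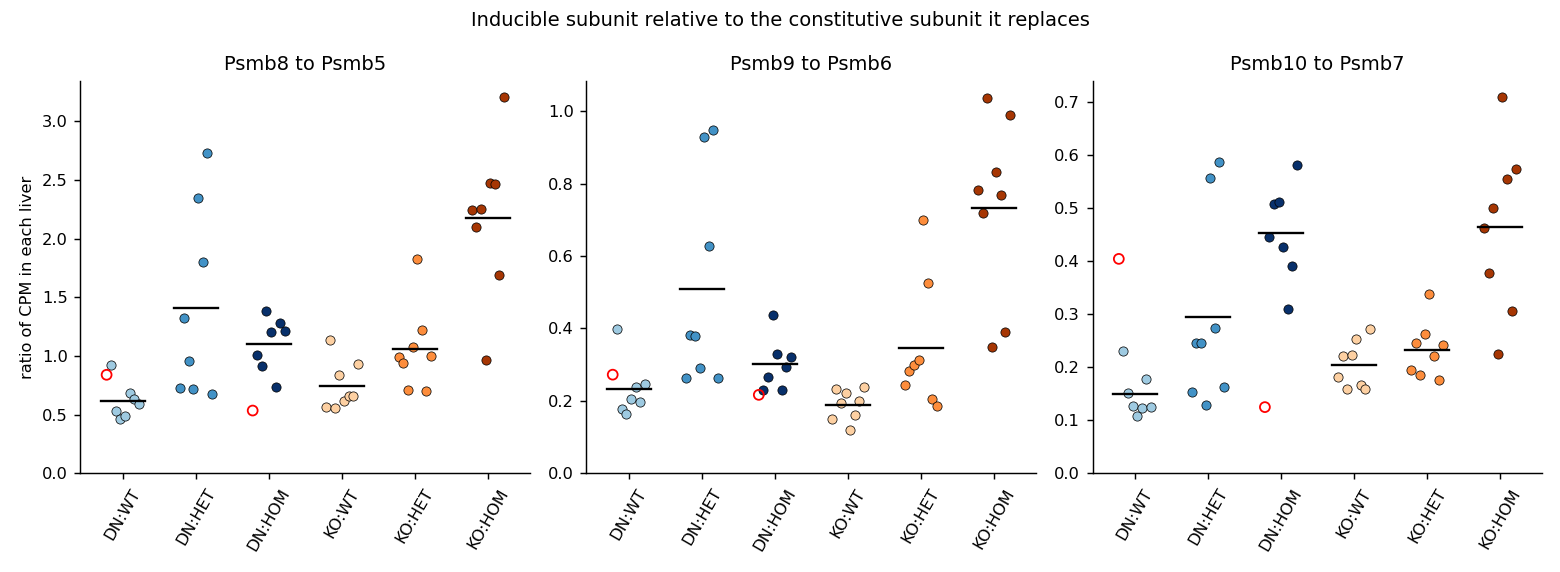
Ratio of CPM of each inducible proteasome subunit to the constitutive subunit it replaces, 1 point per liver, with bars at the mean of the livers used and open circles for DN:WT animal 10 and DN:HOM animal 12. Psmb9 to Psmb6 averages 0.301 in DN:HOM and 0.733 in KO:HOM, while Psmb10 to Psmb7 averages 0.453 and 0.464.

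The wider pathway was described with 94 further class I genes, of which 79 passed the filter. In KO:HOM 34 rose and 5 fell (median log2 change 0.28), and in DN:HOM 30 rose and 25 fell (median 0.09). Of all genes 11.5% rose and 7.87% fell in KO:HOM, and 29.1% rose and 30% fell in DN:HOM, so the share of the list that fell in DN:HOM was near that of all genes. With all 48 livers 31 rose and 2 fell in KO:HOM (all genes 8.79% and 4.12%), and 21 rose and 23 fell in DN:HOM (all genes 23% and 25%). Of 16 regulators tested, 9 rose and 1 fell in KO:HOM, and 9 rose and 3 fell in DN:HOM, or 8 and 0, and 6 and 3, with all 48 livers. Irf1, an interferon-induced transcription factor, changed by 1.53 in KO:HOM (SE 0.28, adjusted p = 1.0e-04) and by 0.23 in DN:HOM (SE 0.29, adjusted p = 0.51, not passing). With single livers left out the DN:HOM value of Irf1 ran from 0.13 (without DN:WT animal 7) to 0.49 (without DN:WT animal 13) and never passed. Socs1, the feedback inhibitor of interferon signalling, rose by 4.42 in KO:HOM (SE 0.61, adjusted p = 1.8e-06) and stood at 1.09 in DN:HOM (SE 0.58, adjusted p = 0.1). In DN:HOM Socs1 passed with library size alone (1.52, adjusted p = 0.023) and with unstranded counts (1.31, adjusted p = 0.049). The differences between the studies were -1.29 for Irf1 (adjusted p = 0.011) and -3.33 for Socs1 (adjusted p = 0.0022), and that of Irf1 no longer passed with library size alone (-0.99, adjusted p = 0.057).

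Other regulators rose in both. Relb, an NF-kB subunit, rose by 2.71 in DN:HOM (SE 0.36, adjusted p = 2.1e-08) and by 1.73 in KO:HOM (SE 0.35, adjusted p = 3.1e-04), a difference that did not pass (0.98, adjusted p = 0.12) except with library size alone (1.29, adjusted p = 0.042). Relb was at 1.78 in DN:HOM with all 48 livers, and the difference at 0.05. The interferon-γ receptor genes Ifngr1 and Ifngr2 rose by 1.79 and 1.37 in DN:HOM and by 0.58 and 0.52 in KO:HOM, and here the difference passed (1.21, adjusted p = 2.0e-04, and 0.85, adjusted p = 2.0e-05). With all 48 livers it did not (0.63, adjusted p = 0.25, and 0.41, adjusted p = 0.3), and the KO:HOM values no longer passed (adjusted p = 0.13 and 0.05). In peptide loading, Tapbp (tapasin, which bridges the transporter and the heavy chain) rose in both, by 0.91 in DN:HOM (SE 0.18, adjusted p = 2.4e-05) and 0.85 in KO:HOM (SE 0.17, adjusted p = 2.1e-04). The difference was 0.06 (SE 0.24).

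**Figure D5:**
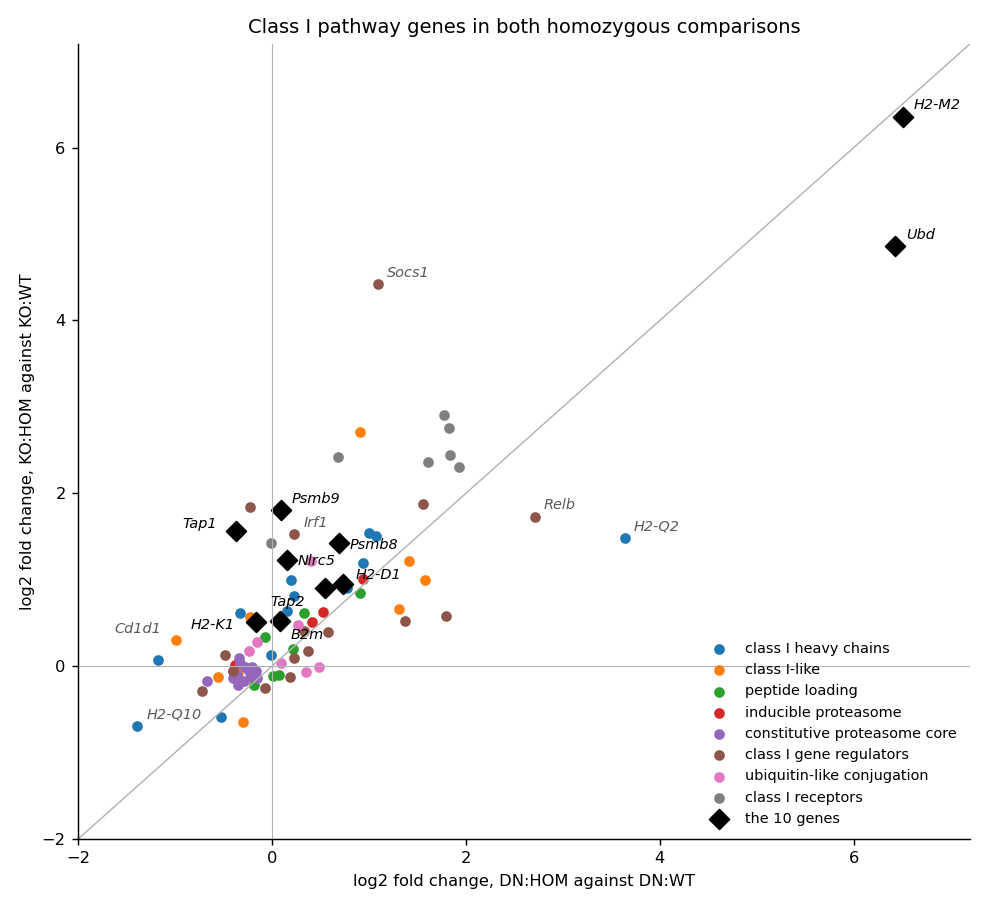
Log2 fold changes of 79 class I pathway genes (coloured by list) and the 10 genes (black diamonds) in DN:HOM (x axis) and KO:HOM (y axis) against WT livers of the same study, with the line of equality. Irf1, Socs1, Tap1 and Psmb9 lie above the line, with DN:HOM values between -0.37 and 1.09, and H2-Q10 is below 0 in both.

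The heavy chains as a family depended on H2-Q10, a secreted class I heavy chain made by hepatocytes. It was at 3015 ± 375 CPM (SD, n = 7) in DN:WT, 55.4 ± 1.88% of reads on 28 heavy chain genes (SD, n = 7), and fell by 1.39 in DN:HOM (SE 0.15, adjusted p = 2.3e-10) and by 0.69 in KO:HOM (SE 0.14, adjusted p = 4.3e-04). Of the 6 hepatocyte markers, 6 fell in DN:HOM (median log2 change -1.04; all genes 30%) and 4 in KO:HOM (median -0.36; all genes 7.87%), or 5 and 2 with all 48 livers, and their part in the H2-Q10 values was not tested. Summed over the family, reads fell by 0.48 in DN:HOM (SE 0.10, adjusted p = 1.4e-04) and differed by 0.18 in KO:HOM (SE 0.10, adjusted p = 0.2). Without H2-Q10 the sums differed by 0.19 in DN:HOM (SE 0.15, adjusted p = 0.26) and rose by 0.67 in KO:HOM (SE 0.14, adjusted p = 3.7e-04). H2-D1 took 12.8 ± 1.87% of family reads in KO:WT and 21.6 ± 2.86% in KO:HOM (SD, n = 8 each), and 23.9 ± 1.83% in DN:HOM (SD, n = 7). H2-M2 took 0.00467% in DN:WT and 0.614% in DN:HOM. Class I paralogs share sequence: 26.6% of the 100-base windows of H2-D1 and 15.1% of those of H2-K1 recur in another gene, and reads that fit several genes equally were not counted. Psmb9 and Tap1 overlap by 743 bases on opposite strands, and counts that ignore strand left their changes in place (Tap1 -0.36 in DN:HOM and 1.59 in KO:HOM).

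Members of the set moved together from liver to liver within groups. Over the 46 livers, deviations of log2 CPM from group means had Pearson correlations of 0.53 to 0.93 among the 45 pairs (median 0.76), highest for Psmb9 with Tap1 and H2-K1 with H2-D1 (0.93 each) and lowest for H2-M2 with Nlrc5 (0.53). They ranged, with all 48 livers, from 0.19 to 0.90 (median 0.72), and were 0.19 for H2-M2 with Tap1, 0.25 for H2-M2 with H2-K1, 0.30 for Ubd with H2-K1 and 0.32 for Ubd with Tap1. These values are a description: each point is a whole liver library, so its depth and cell makeup are common to all genes of that point. The genes most like Psmb8 were H2-T23, AW112010, Cd274, Psmb10 and Samhd1 (0.90 to 0.92). Those most like Ubd were H2-DMa, H2-Eb1, H2-DMb1, Slamf8 and H2-Ab1 (0.89 to 0.91), and those most like H2-M2 were H2-Aa, H2-Eb1, H2-Ab1, Cd74 and Fxyd5 (0.82 to 0.86), so class II presentation genes led for both. Itgax came first with all 48 livers for both Ubd (0.93) and H2-M2 (0.91), and none of the class II genes named was then among the 5 of either.

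Markers of several other cell types differed between the groups, and in whole liver more cells of a type and more RNA per cell cannot be told apart. The 6 T cell markers, among them Cd3e and Cd8a, all rose in KO:HOM (median log2 change 2.42), and 4 of 6 in DN:HOM (median 1.33), or 1 of 6 with all 48 livers. Of all genes 11.5% rose in KO:HOM and 29.1% in DN:HOM. Their summed level ranged from 2.06 to 5.58 CPM in KO:WT, 6.17 to 24.8 in KO:HOM, 2.16 to 4.14 in DN:WT, 2.97 to 27.3 in DN:HET and 4.24 to 6.90 in DN:HOM. The DN:HET livers with the highest class I levels, animals 22 and 4, were also highest for markers of T cells (27.3 and 25.1 CPM, the others at most 12.3), macrophages (873 and 811 CPM, the others at most 313), dendritic cells (37 and 28.1 CPM, the others at most 17.7) and Kupffer cells (381 and 435 CPM, the others at most 309), and lowest for those of hepatocytes (44988 and 47122 CPM, the others at least 58581). In DN:HET 5 of 6 T cell, 3 of 6 macrophage and 3 of 5 dendritic cell markers rose (all genes 2.23%), or 2, 0 and 0 with all 48 livers. The 6 macrophage markers, among them Cd68 and Lyz2, summed to 765 to 1244 CPM in DN:HOM, 218 to 970 in KO:HOM, 80.6 to 152 in DN:WT and 50.4 to 162 in KO:WT. Of 4 Kupffer cell markers, among them Clec4f and Timd4, 4 fell in DN:HOM (all genes 30%) and 3 in KO:HOM (all genes 7.87%; 2 of 4 with all 48 livers), and their sum was 1.29 to 3.40 CPM in DN:HOM, 129 to 251 in DN:WT, 17.8 to 53.6 in KO:HOM and 73.4 to 294 in KO:WT. Neutrophil markers (3 of 3, median 4.31) and cholangiocyte markers (4 of 4, median 3.57) rose in DN:HOM, with medians of 2.18 and 2.30 with all 48 livers. In KO:HOM 2 of 3 neutrophil markers rose (0 of 3 with all 48 livers) and 0 of 4 cholangiocyte markers. Dendritic cell markers rose in both (3 of 5 in DN:HOM and 4 of 5 in KO:HOM; 3 each with all 48 livers), as did those of stellate cells (3 of 4 and 2 of 4; 3 and 1 with all 48 livers). Of 4 endothelial markers 3 fell in DN:HOM, and 1 rose and 1 fell in KO:HOM. Of 2 NK cell and 3 plasma cell markers 1 each rose in DN:HOM and 0 in KO:HOM, and 0 with all 48 livers. Of 4 B cell markers 0 rose in either, and 1 fell in DN:HOM (0 with all 48 livers). The part of these cells in the class I values was not tested.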

How the data were processed

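Stranded mRNA libraries from 48 livers were aligned by the authors with STAR 2.5.0a to GRCm39 with an Ensembl annotation, and the deposited files hold whole-number read counts per gene, not normalized. The strand used held 6.97 to 8.62 times the reads of the other. Lines that name no gene were left out, with 24.0% to 35.0% of reads on no gene and 6.01% to 8.13% mapping to several places. The fit used 46 livers. Of 24 DN livers, 22 were matched, by proportional values, to the published source values, which the paper's supplement lists for DN only. DN:WT animal 10 and DN:HOM animal 12 had no match and were left out. No reason was found in the sources used here, and neither was moved to another group. All 24 KO livers were kept.

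Genes were filtered (filterByExpr), scaled by TMM and tested with the quasi-likelihood F test of edgeR 4.0.16 in R 4.3.3 on 6 group means, with Benjamini-Hochberg adjustment over all 15711 genes and a threshold of 0.05. The standard error is the size of the log2 fold change divided by the root of F. CPM used TMM-scaled library sizes of all 48 livers. Nothing in the labels pairs the livers, and each is 1 mouse. The members and lists were chosen with earlier results of these data known. Genes were named by membership of these lists, or as the 5 genes nearest to Ubd, H2-M2 or Psmb8 by correlation. A run of the model on simulated data changed genes in KO:HOM alone. It did not cover changes as broad as those in DN:HOM. Alternatives were all 48 livers, DESeq2 1.42.0, upper-quartile scaling, library size alone, no filter, unstranded counts, each study alone, leaving out the 2 shallow livers and, chosen after seeing the data, leaving out each liver in turn, or DN:HET animals 22 and 4 together, and the heavy chain sum without H2-Q10. Motifs and shared windows were computed in Python 3.11.15 from GRCm39 and GENCODE transcripts, and figures were drawn with matplotlib 3.10.9. Items withheld from this text are not reported here, though counts over lists include them.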

Additional observations from a re-analysis of the deposited data

Results flagged for a closer look

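A liver stood far from the rest of its group in 8 of 60 combinations of gene and group (10 genes, 6 groups), as its gap to the nearest other liver, relative to the range of the group, was above Dixon's critical value. Chance gives about 1 in 20 groups, but the genes move together within groups, so the 60 are not independent and that rate is no yardstick for the 8. DN:WT animal 17 had 4.4 CPM of Ubd (the others 1.26 to 2.40) and 1777 CPM of H2-K1 (the others 1297 to 1462). DN:WT animal 13 had 83.5 CPM of Tap1 (the others 35.1 to 44.5) and 43.5 CPM of Psmb9 (the others 19.1 to 24.9), but the lowest Ubd of its group. KO:HET animal 4 had 2564 CPM of B2m (the others 1538 to 1988) and 66.9 CPM of Psmb8 (the others 30.8 to 47.3). KO:WT animal 5 had 44.8 CPM of Tap1 (the others 24 to 33.1) and 34.5 CPM of Tap2 (the others 25.3 to 29.2).

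The homozygous effects differed between the studies, by edgeR's test of the difference of differences, for 5 members. The DN effect minus the KO effect on the log2 scale was -0.43 for B2m, -0.68 for H2-K1, -1.71 for Psmb9, -1.93 for Tap1 and -1.07 for Nlrc5. Leaving out DN:WT animal 13 gave -1.56 for Psmb9, -1.74 for Tap1 and -0.91 for Nlrc5.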

How the results depend on the processing

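Over 8 alternatives, 296 of 312 values of the 8 genes taken for function kept their direction and their side of the threshold, 8 no longer passed, 5 newly passed and 3 changed sign. Of 78 values of H2-M2 and Ubd, given with no test, 2 changed sign. With library size alone, which moves the median gene of DN:HOM to 0.42 and of the DN minus KO difference to 0.31, signs turned for H2-K1 (0.26) and Tap1 (0.05) in DN:HOM, and for H2-D1 (0.09), Psmb10 (0.24), H2-Q4 (0.06) and Psme1 (0.21) in the difference. The heavy chain sum then stood at -0.04 in DN:HOM (no longer passing) and 0.30 in KO:HOM (newly passing). Without H2-Q10 the sum was 0.19 in DN:HOM and 0.67 in KO:HOM. With all 48 livers the difference turned for H2-M2 (-3.59), Ubd (-1.91) and Tapbp (-0.13), and 2016 genes were called in KO:HOM (3048 with 46 livers), 39 in DN:HET (361) and 1636 in the difference (5456). From DN:HET to DN:HOM, Tap2 turned with all 48 livers (-0.01), and H2-D1 (0.30) and Psmb8 (0.09) without DN:HET animals 22 and 4. DN:HET gave 617 genes with DESeq2 and 239 with the study fitted alone. KO:HET gave 3 genes, 10 with DESeq2 and 8 without a filter. The causes were not tested.

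Leaving out each liver in turn gave 21 (without DN:HET animal 22) to 629 (without DN:HET animal 8) genes in DN:HET and 3 to 6 in KO:HET. Of the 8 functional genes, 3 passed in DN:HOM and 8 in KO:HOM whichever liver was left out, and 0 to 7 in DN:HET. Ranges that crossed 0 were those of Psmb9 (-0.01 to 0.25) in DN:HOM, and of H2-M2 (-0.28 to 0.78), Psmb10 (-0.18 to 0.03) and Tapbp (-0.02 to 0.12) in the difference, and of H2-D1 (-0.10 to 0.14) from DN:HET to DN:HOM, none of which had passed a test. Cd1d1 lost its call in KO:HOM without KO:HOM animal 20 or KO:WT animal 34, and B2m in the difference without DN:HOM animal 15, DN:HOM animal 34 or KO:HOM animal 20 (highest adjusted p 0.055). No paired analysis was possible because animal numbers do not recur across genotypes within a study. At WT levels of H2-M2, a few reads per liver, smaller differences were not detectable.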

Other observations

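Among relatives of class I outside peptide presentation, 3 of 10 tested rose and 4 fell in DN:HOM, near the shares of all genes (29.1% and 30%). Cd1d1, which presents lipids to NKT cells, was at 275 ± 25.9 CPM in DN:WT and 137 ± 20.8 CPM in DN:HOM (SD, n = 7 each), and fell by 0.99 on the log2 scale (SE 0.10, edgeR adjusted p = 4.1e-11). In KO:HOM it rose by 0.30 (SE 0.10, adjusted p = 0.023; adjusted p = 0.16 with all 48 livers, 0.066 without KO:HOM animal 20 and 0.058 without KO:WT animal 34), and DN minus KO came to -1.29 (adjusted p = 1.2e-09). Of the ligands of the activating receptor NKG2D that rose in DN:HOM, Raet1d stood at 1.31 (SE 0.30, adjusted p = 1.9e-04), Raet1e at 1.41 (SE 0.33, adjusted p = 2.7e-04) and Ulbp1 at 1.58 (SE 0.41, adjusted p = 8.3e-04). In KO:HOM their values were 0.66 (adjusted p = 0.076), 1.21 (adjusted p = 0.0043) and 0.99 (adjusted p = 0.059), and none of the 3 differed between the studies by edgeR's test (adjusted p from 0.22 to 0.77). Of 7 class I receptor genes, 7 rose in KO:HOM (all genes 11.5%) and 5 in DN:HOM (all genes 29.1%), or 7 and 2 with all 48 livers.

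Among 7 genes of ubiquitin-like conjugation, 1 rose in KO:HOM, and 2 rose and 1 fell in DN:HOM (2 and 0 with all 48 livers), near the shares of all genes that rose (11.5% and 29.1%). Uba7, the activating enzyme of the interferon-induced modifier ISG15, rose by 1.21 in KO:HOM (SE 0.22, adjusted p = 8.3e-05). Ube2z, the conjugating enzyme that accepts FAT10 from Uba6, rose by 0.35 in DN:HOM (SE 0.06, adjusted p = 8.3e-06), and Uba6 was at 0.09 (adjusted p = 0.57). Sqstm1, an autophagy receptor, rose by 0.48 in DN:HOM (SE 0.07, adjusted p = 2.4e-07). Isg15 itself was at -0.16 in DN:HOM and 0.28 in KO:HOM, with adjusted p of 0.64 and 0.47.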
